A study of Mus musculus with 4 samples.

Results

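The chromatin around the 5 GATA genes Gata2, Gata3, Gata4, Gata5 and Gata6 was examined in day 4 embryoid bodies (EBs). These 5 genes were taken from 21840 protein-coding genes by name, and accessible regions were assigned to them where a peak lay within 100 kb of the transcription start site (TSS) of one of their protein-coding transcripts. This gave 83 of the 80380 regions found in the whole series, and a region within 1 kb of a TSS was called a promoter region. ATAC-seq, in which a transposase inserts sequencing adapters into open chromatin, had been performed on 2 libraries of wild-type (WT) cells and 2 libraries of CTCF-K20R cells. Both genotypes are of the mouse embryonic stem cell (mESC) line E14Tg2A, were kept on mitomycin C-inactivated fibroblasts with LIF and 2i, and were differentiated by the hanging-drop method in serum without LIF. In the K20R cells, lysine 20 of the architectural protein CTCF had been replaced with arginine by CRISPR/Cas9. Targeted colonies had been picked, and whether 1 clone or several gave the libraries is not stated in the sources used here. Each library has its own peak list, and nothing in the labels says whether replicates came from separate cultures, so differences below measure only the spread between these libraries.

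GATA factors are zinc finger transcription factors that bind short sites with the core GATA. GATA2 and GATA3 are best known from blood progenitors and T cells, and both also act in trophoblast, whereas GATA4, GATA5 and GATA6 act in endoderm and in cardiac mesoderm. In differentiating stem cells, GATA4 and GATA6 drive primitive endoderm and later the cardiac program together with NKX2-5, TBX5 and HAND2. Open chromatin at a gene is not a measure of its expression, and the lists hold no expression values.

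Between 59783 and 66703 peaks were listed per WT library, against 51823 to 55832 per K20R library. Relative depth, estimated from the background that each list implies, was 1 and 0.976 in WT against 1.15 and 1.04 in K20R. The lists held between 50.5% and 60.8% of their own peak numbers, and called peaks had therefore been taken out before deposit. A region absent from a list can be one of them, and for each such region the peak numbers missing between the neighbouring deposited peaks were counted. Promoters of 4 early mesoderm genes (T, Mesp1, Eomes and Mixl1), 3 pluripotency genes and 3 fibroblast genes all had a peak in every list, so promoter peaks alone did not tell these cell types apart. In these bulk samples, fewer cells of a type and less open chromatin per cell cannot be told apart.

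The sequences below are taken from regions and promoters of these genes. The strongest region of Gata2, Gata3, Gata4 and Gata5 that was present in both lists of 1 genotype and in neither list of the other is shown as the 201 bases around its highest summit, on the plus strand of mm10, with the GATA motif (the core GATA with A or T before it and A or G after it) in capitals. All 4 are WT-restricted, that is, with a peak in both WT lists and no peak in either K20R list. For Gata2 this is chr6:88226711-88226911, 28.1 kb downstream of the nearest TSS and in an intron of Dnajb8. For Gata3 it is chr2:9926402-9926602, 47.6 kb upstream and in an intron of Taf3, which encodes a TFIID subunit. For Gata4 it is chr14:63326051-63326251 and for Gata5 chr2:180359180-180359380, both intergenic.
Gata2 WT-restricted: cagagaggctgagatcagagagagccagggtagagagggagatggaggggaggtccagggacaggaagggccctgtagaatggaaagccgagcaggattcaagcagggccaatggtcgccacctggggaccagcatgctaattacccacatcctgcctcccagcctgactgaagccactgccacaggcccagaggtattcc
Gata3 WT-restricted: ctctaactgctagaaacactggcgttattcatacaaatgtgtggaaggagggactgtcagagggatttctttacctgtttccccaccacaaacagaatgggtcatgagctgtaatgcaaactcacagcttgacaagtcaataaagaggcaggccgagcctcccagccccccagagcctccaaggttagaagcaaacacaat
Gata4 WT-restricted: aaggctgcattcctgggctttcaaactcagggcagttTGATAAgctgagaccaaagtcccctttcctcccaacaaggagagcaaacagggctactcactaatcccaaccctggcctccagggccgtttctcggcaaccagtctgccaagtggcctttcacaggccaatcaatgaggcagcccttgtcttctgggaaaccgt
Gata5 WT-restricted: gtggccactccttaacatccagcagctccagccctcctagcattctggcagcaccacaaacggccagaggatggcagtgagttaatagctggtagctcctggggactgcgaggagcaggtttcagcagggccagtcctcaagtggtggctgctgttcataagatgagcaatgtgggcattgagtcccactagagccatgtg

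Among the regions with a peak in all 4 lists, 3 held the CTCF consensus within 100 bases of the summit, and these are shown because CTCF carries the mutation. They were chosen after the motif search, lie at chr6:88113173-88113373, chr2:180251386-180251586 and chr2:180347250-180347450, and have the consensus match in capitals.
Gata2 CTCF window: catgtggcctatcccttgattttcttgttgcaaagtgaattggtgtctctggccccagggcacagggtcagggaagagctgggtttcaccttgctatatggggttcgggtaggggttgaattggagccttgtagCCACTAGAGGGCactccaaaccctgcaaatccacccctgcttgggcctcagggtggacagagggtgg
Gata5 CTCF window 1: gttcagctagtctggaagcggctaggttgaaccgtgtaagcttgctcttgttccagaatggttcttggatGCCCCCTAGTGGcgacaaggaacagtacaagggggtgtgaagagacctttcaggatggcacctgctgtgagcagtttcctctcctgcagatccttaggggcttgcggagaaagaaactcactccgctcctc
Gata5 CTCF window 2: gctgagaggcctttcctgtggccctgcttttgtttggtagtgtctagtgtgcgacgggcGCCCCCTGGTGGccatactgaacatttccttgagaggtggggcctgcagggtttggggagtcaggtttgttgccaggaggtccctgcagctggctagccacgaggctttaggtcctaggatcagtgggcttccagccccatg

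RefSeq promoter entries for the mm10 build were matched for Gata2, Gata3 and Gata5. None was matched for Gata4, and Gata6 was left out of this search. The 250 bases before the start are given, 5′ to 3′ in the direction of the gene, for the upstream Gata2 start (chr6:88193641-88193890, plus strand) and for Gata3 (chr2:9878601-9878850, minus strand), the gene whose promoter differed in direction from the others. Both are rich in CpG, with 22 and 19 CpG dinucleotides and a GC content of 67.2% and 70.0%. Neither holds a GATA motif, which occurs in 26.5% of the 32851 promoter entries over the same length. The Gata2 bases do not belong to the promoter region ranked below, which is that of its downstream TSS. At Gata3 the ranked peak began 767 and 602 bp from the TSS in WT and 351 bp from it in K20R replicate 1. Only in K20R replicate 2 did it reach the TSS and thus cover these bases.
Gata2 promoter: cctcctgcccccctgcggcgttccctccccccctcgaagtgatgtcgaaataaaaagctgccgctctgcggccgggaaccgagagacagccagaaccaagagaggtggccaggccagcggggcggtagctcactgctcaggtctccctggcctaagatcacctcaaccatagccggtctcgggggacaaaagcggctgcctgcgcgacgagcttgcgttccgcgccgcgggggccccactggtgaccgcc
Gata3 promoter: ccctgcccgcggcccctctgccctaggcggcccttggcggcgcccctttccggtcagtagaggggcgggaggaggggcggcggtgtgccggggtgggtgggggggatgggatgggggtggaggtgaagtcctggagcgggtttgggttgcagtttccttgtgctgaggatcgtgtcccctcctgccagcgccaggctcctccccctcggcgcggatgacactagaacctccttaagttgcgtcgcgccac

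All 5 promoters had a peak in all 4 lists, and 4 of the 5 ranked lower in both K20R lists than in both WT lists. Peaks were ranked within their own list by the −log10 p of the summit, so that a percentile of 100 is the strongest peak. The promoter of Gata6, which is required for endoderm and heart development, stood at percentiles of 83.5 and 88.2 in WT against 56.5 and 66.0 in K20R. The promoter of Gata4, its partner in cardiac and endoderm gene regulation, stood at 80.2 and 71.1 in WT against 52.1 and 58.9 in K20R. Both K20R libraries lay below both WT libraries at each of these genes, with a difference of the means of −24.6 percentile points at Gata6 and −20.2 at Gata4.

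The other 3 promoters differed less. Gata5, expressed in endocardium and endoderm, had percentiles of 83.0 and 84.7 in WT against 71.0 and 78.8 in K20R. Gata2, needed for the expansion of blood progenitors, had 70.0 and 68.3 against 59.9 and 66.0. Here too the genotypes did not overlap, although the second K20R library lay only a few points under the lower WT library. Gata3, the regulator of T helper and trophoblast fate, was the exception, with 85.6 and 89.7 in WT against 88.3 and 90.2 in K20R, and its groups overlapped. With 2 libraries against 2 the exact two-sided permutation test cannot give a p below 0.333, which was its value at Gata2, Gata4, Gata5 and Gata6, while it was 0.667 at Gata3.

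A lower rank in K20R was common among promoters. Of the 14480 protein-coding genes with a promoter peak in all 4 lists, 32.2% had both K20R percentiles below both WT percentiles and 15.7% had both above. When these promoters were ranked among themselves, 22.9% were lower and 23.8% higher in K20R. On this scale the Gata6 promoter had 41.4 and 52.0 in WT against 8.44 and 13.2 in K20R, a mean difference of −35.9, and only 0.642% of the genes had a difference as low or lower. Gata4 had 33.8 and 16.9 against 6.31 and 8.19, a difference of −18.1 that 4.49% of the genes reached, and Gata5 had 40.1 and 42.0 against 21.5 and 32.3, a difference of −14.1 that 7.30% reached. Gata2 differed by −3.69 on this scale, and its groups overlapped when it was ranked among all regions with a peak in every list (55.3 and 48.5 in WT against 47.1 and 51.4 in K20R) or by fold. Gata3 went the other way, with 47.1 and 56.9 against 59.4 and 63.3, so that both K20R values lay above both WT values.

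**Figure D1:**
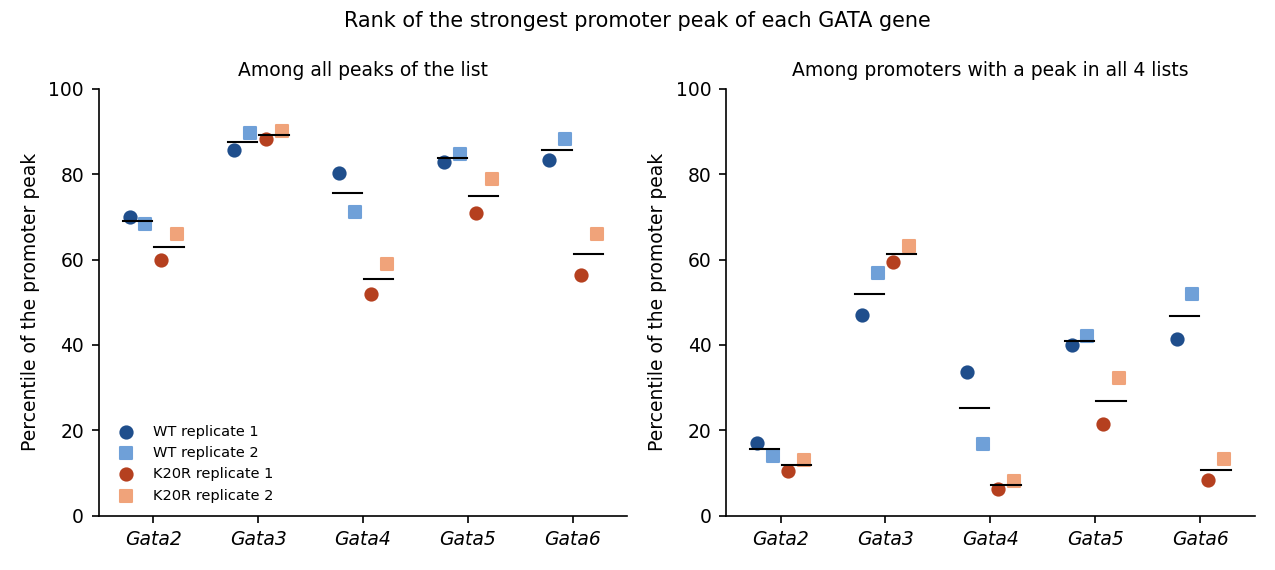
Percentile of the strongest promoter peak (vertical axis, 100 is the strongest) for each GATA gene, among all peaks of a list (left) and among the promoters with a peak in all 4 lists (right). Points are single libraries and black lines the mean of 2 libraries. The K20R points of Gata2, Gata4, Gata5 and Gata6 lie below their WT points in both panels, and those of Gata3 do not.

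Widths and summit folds of the promoter peaks were also read. At Gata6, chr18:11051426-11055269, the strongest peak was 1574 and 1856 bp wide in WT against 1396 and 3794 bp wide in K20R, and its summit fold over local background was 5.25 and 6.20 in WT against 3.61 and 4.42 in K20R. Thus the Gata6 promoter was lower by fold too, at percentiles of 57.6 and 54.3 in WT against 33.0 and 31.4 in K20R. At Gata4, chr14:63244731-63247054, the fold was 4.99 and 4.51 in WT against 4.54 and 5.63 in K20R, and ranked by fold the promoter differed by 2.48 percentile points in the opposite direction, with overlapping groups. Ranked by fold, the Gata5 promoter was lower in both K20R lists, although its folds of 7.72 and 9.65 in WT against 6.16 and 9.39 in K20R overlapped. The lower position of Gata4 therefore held for the p-value and the pileup of reads but not for the fold.

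At Gata3 the strongest summit lay between 1088 and 1137 bp upstream of the TSS in the 4 lists, inside a region of 1764 bp, chr2:9878128-9879891. A second, weaker promoter peak was present in both WT lists, at percentiles of 51.2 and 47.9, and in the first K20R list, at 50.2. With the promoter limited to 500 bp, the WT values became those of the weaker peak while the K20R values stayed at 88.3 and 90.2, since the stronger peak began 602 and 767 bp from the TSS in the WT lists but closer in the K20R lists. Gata2 had 3 promoter regions for its 2 TSSs. The downstream TSS region, chr6:88197901-88198941, was the strong one, and the upstream TSS region, chr6:88193528-88194533, stood at only 18.2 and 5.14 in WT against 21.6 and 11.9 in K20R.

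The number of peaks within 100 kb was lower in K20R at Gata4 and Gata6 and overlapped between genotypes at the other 3 genes. Around Gata4 there were 18 and 19 peaks in WT against 9 and 11 in K20R. Around Gata6 there were 11 and 9 in WT against 5 and 4 in K20R. The K20R mean was 0.541 of the WT mean at Gata4 and 0.450 at Gata6, whereas over the whole lists it was 0.851. Gata4 lies in a lowered stretch of chromosome 14, described below, for which no such ratio was computed. Gata2 had 11 and 17 peaks in WT against 14 and 13 in K20R, Gata3 had 15 and 14 against 14 and 14, and Gata5 had 14 and 16 against 13 and 14, with ratios of 0.964, 0.966 and 0.900. The exact permutation p was 0.333, the smallest possible, at Gata4 and Gata6. Among 19872 genes with a region in the window, 30.3% had fewer peaks in both K20R lists than in both WT lists.

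**Figure D2:**
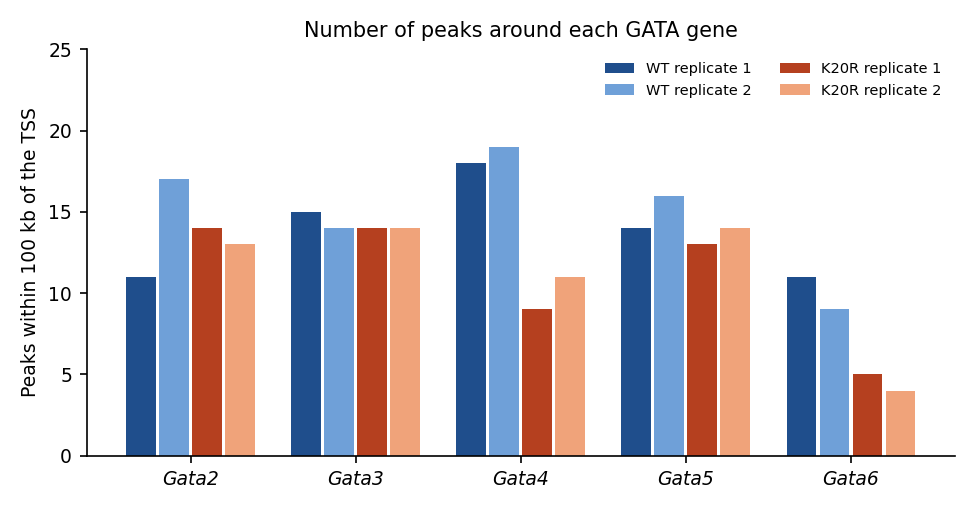
Number of peaks (vertical axis) within 100 kb of a TSS of each GATA gene, with 1 bar per library. The K20R bars of Gata4 (9 and 11) and Gata6 (5 and 4) are lower than the WT bars (18 and 19, 11 and 9), and the bars of Gata2, Gata3 and Gata5 overlap between genotypes.

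Merged over the 4 lists, the 83 regions comprised 41 with a peak in every list, 15 that were WT-restricted, 2 that were K20R-restricted and 25 with another combination. WT-restricted regions made up 18.1% of them, beside 10.4% of all regions, and K20R-restricted regions 2.41%, beside 3.1%. The WT-restricted regions were spread unevenly, with 6 of 20 regions at Gata4, 4 of 9 at Gata6, 2 of 18 at Gata3, 2 of 18 at Gata5 and 1 of 18 at Gata2. At least 4 WT-restricted regions were found within 100 kb of 4.65% of genes and at least 6 within 100 kb of 0.755%, and the median gene had 1. Without Gata4, 9 WT-restricted and 2 K20R-restricted regions were left.

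**Figure D3:**
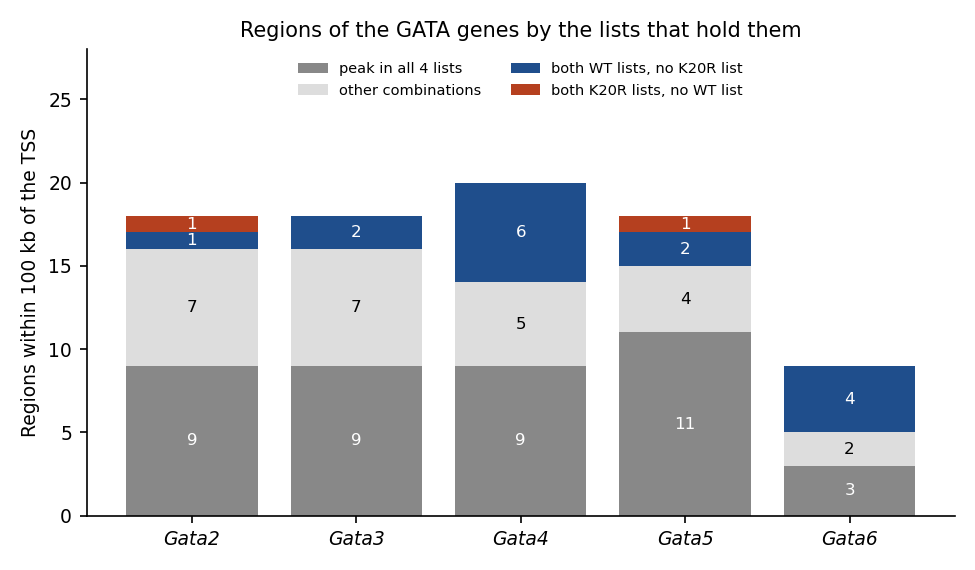
Number of regions (vertical axis) within 100 kb of each GATA gene, stacked by the lists in which they have a peak. WT-restricted regions, in blue, number 6 at Gata4 and 4 at Gata6 and 1 or 2 at the other genes, and K20R-restricted regions, in red, number 1 each at Gata2 and Gata5.

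Gata6 had 9 regions within 100 kb, where the median gene had 12, and its WT-restricted regions lay on both sides of the TSS. An upstream region 94.2 kb from the TSS, chr18:10957154-10958308, was at percentiles of 64.5 and 76.2 in WT. Downstream of the gene, chr18:11096395-11098090 was at 57.4 and 73.0 and chr18:11127058-11127432 at 39.3 and 34.1. Within the gene, an intronic region 25.4 kb downstream of the TSS, chr18:11077860-11078632, was at 21.6 and 37.8. None of these 4 had a deposited peak in either K20R list, but 3 or 4 peak numbers were missing in a K20R list between the peaks on either side, so a called peak could have been taken out at each of them. With a minimum −log10 q of 10 in every list, 3 regions at Gata6 were WT-restricted, where 6.92% of the 45769 regions of the whole series were. They were chr18:10957154-10958308 and chr18:11096395-11098090 from above, and chr18:11129244-11130048, which is not WT-restricted without this minimum. The other regions above did not reach it in both WT lists. Region chr18:11129244-11130048, singled out after its values were seen, was at 65.8 and 65.6 in WT and had no peak in the first K20R list. In the second K20R list it was at 6.94, with a −log10 q of 2.28.

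At Gata4, 4 of the 6 WT-restricted regions lay in introns of the gene and 2 in intergenic sequence. The strongest, chr14:63325807-63326514, lay 80.5 kb upstream and was at percentiles of 34.7 and 58.9 in WT. The next were the intronic chr14:63264452-63265038, at 44.5 and 18.7, and the intergenic chr14:63195918-63196239, downstream of the gene, at 24.3 and 31.2. The other 3, all intronic, were weaker, and the closest lay 1.35 kb from a TSS. At 5 of the 6 regions no peak number was missing in the K20R lists, so that no called peak had been taken out there, and all but the strongest were of this kind. How often this holds over all WT-restricted regions was not computed.

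Gata3 had 2 WT-restricted regions. That in Taf3, chr2:9926236-9927396, was the strongest WT-restricted region of all 5 genes, at 78.3 and 81.3 with folds of 9.11 and 12.0, and up to 3 peak numbers were missing there in K20R. The other, chr2:9887761-9888300, lay in an intron of 9230102O04Rik at 25.1 and 25.6 and had no missing number. Gata5 had 2, chr2:180359065-180359499 at 39.2 and 44.6 and chr2:180322714-180323321 at 29.6 and 39.4, and Gata2 had 1, chr6:88226416-88226976, at 51.2 and 64.3, each with 1 or 2 missing numbers. The K20R-restricted regions were weak. That of Gata5, chr2:180293016-180293285, was at 29.7 and 30.3 in K20R with no missing number in WT, and that of Gata2, chr6:88210080-88210477, was at 12.5 and 24.7 with 1 missing number.

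**Figure D4:**
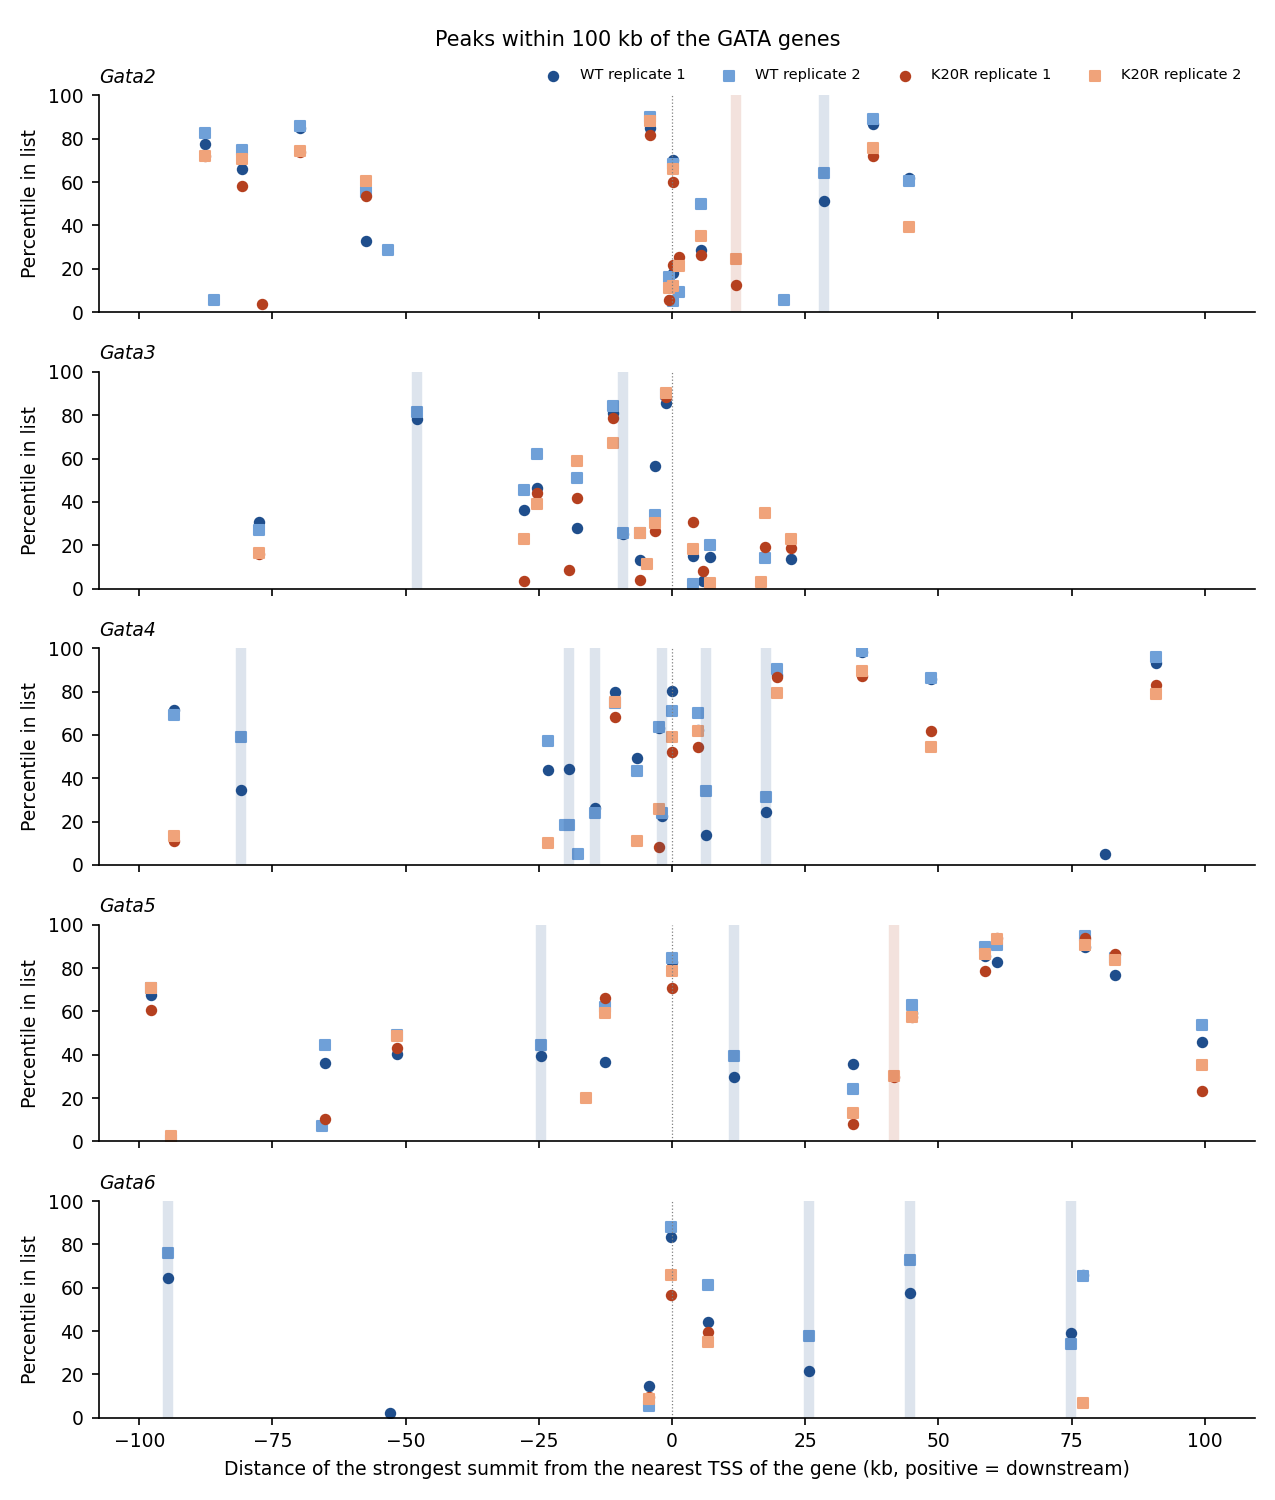
Percentile within its list (vertical axis) of the strongest peak of each region, against the distance of the region's strongest summit from the nearest TSS of the gene in kb (horizontal axis, positive is downstream). Points are single libraries, blue bands mark WT-restricted and red bands K20R-restricted regions. At Gata6, Gata4 and Gata5 the blue bands lie on both sides of the TSS. Around Gata2, Gata3 and Gata5 most strong regions have points of all 4 libraries, and the WT-restricted Taf3 region of Gata3 is an exception.

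For the 41 regions with a peak in every list, percentiles were recomputed among the 38527 such regions of the genome. At 16 of the 41 both K20R libraries ranked under both WT libraries, at 7 both ranked over them, and 18 overlapped. Of all 38527 regions, 25.5% were lower and 29.2% higher, and no test was made over regions, which are not replicates. By log2 summit pileup in place of rank, 23 of the 41 were lower and 6 higher, where 23.7% of all such regions were lower and 35.6% higher. Gata4 gave 6 of the 16 lower regions and none of the higher ones. Without it, 10 of 32 were lower and 7 higher.

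At Gata4, a region next to the promoter was among those lower in K20R. This intronic region, 1.99 kb from the TSS, chr14:63247265-63248072, was at 46.0 and 42.5 in WT against 2.21 and 9.09 in K20R. Promoters of the neighbouring genes Ctsb, which encodes the protease cathepsin B, and Fdft1, which encodes squalene synthase, were also lower in both K20R lists, and that of Neil2, which encodes a DNA glycosylase, overlapped. The Gata4 region that differed least, the intronic chr14:63255308-63256709, was at 69.4 and 58.4 in WT against 57.5 and 64.3 in K20R, and overlapped. At Gata6 the promoter region had 74.6 and 79.7 in WT against 42.9 and 51.4 in K20R on this scale. A region in a Gata6 exon 6.51 kb downstream, chr18:11058978-11060458, had 24.5 and 39.2 against 24.2 and 15.8, so that the first K20R library lay just below the first WT library. The region 3.82 kb upstream, chr18:11048010-11048653, was weak in all 4 lists and overlapped.

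The other 3 genes had regions in both directions. At Gata2 the region lowest in K20R relative to WT was in an intron of Dnajb8, chr6:88235463-88236791, at 79.5 and 81.3 in WT against 62.5 and 65.3 in K20R. The highest lay 56.9 kb upstream, chr6:88135959-88136953, at 14.6 and 32.0 against 39.7 and 44.1. At Gata3 a region 27.3 kb upstream, chr2:9905855-9906605, had 17.3 and 21.4 against 0.709 and 7.31, and one 16.7 kb upstream, chr2:9895321-9897413, had 11.3 and 26.8 against 26.3 and 42.0, which overlapped. The region chr2:9888964-9890348, which covers the 5′ end of the longest annotated Gata3 span, had 71.0 and 73.4 against 71.5 and 52.7 and overlapped.

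Of the 11 Gata5 regions with a peak in all 4 lists, 4 were higher and 3 lower in K20R. Among all such regions of the genome, 29.2% were higher and 25.5% lower. The lowest relative to WT was chr2:180234918-180235479, at 26.1 and 29.7 in WT against 10.0 and 16.2 in K20R. The highest was chr2:180347214-180347585, 12.5 kb upstream, at 17.8 and 40.1 against 55.1 and 42.4, and this is the region of the second Gata5 CTCF window above. The region of the first window, chr2:180251149-180252163, also ranked higher, at 64.7 and 73.9 against 82.1 and 76.4, while that of the Gata2 CTCF window, chr6:88112916-88113814, had 50.2 and 58.0 against 45.1 and 57.7 and overlapped. The share higher or lower among all regions with the CTCF consensus was not computed, so these windows give no direction for CTCF sites. The promoter of Cables2, a neighbour of Gata5, was among the higher regions, at 73.5 and 83.7 in WT against 91.6 and 90.5 in K20R.

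Gata4 lies in a stretch of chromosome 14 in which regions were lower in K20R as a whole and was therefore judged against it. The stretch, chr14:34634838-66176004, was the run of neighbouring windows in which the log2 summit pileup (the height of the read pileup, recovered from the deposited fold and p and centred on each library's median) differed by over 0.3 between all 4 pairs of WT and K20R libraries. Apart from Gata4 it held 359 regions with a peak in all 4 lists, with a median difference of −0.77 and quartiles of −0.99 and −0.54, and 75.5% of them were lower in rank. The 9 regions of Gata4 had a median of −0.86 and ranged from −2.15 to −0.29, only −0.09 from the rest of the stretch. Of the 9, 3 lay between the quartiles, 4 below and 2 above.

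Other measures of Gata4 were set beside those of the stretch in the same way. Of 860 regions in the rest of the stretch 20.7% were WT-restricted, against 6 of 20 at Gata4. Among 197 genes of the stretch with a promoter peak in all 4 lists, 89.3% had a lower promoter in both K20R lists, with a median difference of −26.7 in rank among promoters, beside −18.1 at Gata4. The local background moved with the pileup. Its median log2 difference was −1.11 at the 9 Gata4 regions and −0.76 in the rest of the stretch, and the summit fold differed by −0.09 and −0.11. The lower pileup at Gata4 thus cannot be told apart from that of the whole stretch, and the cause of the lower stretch was not tested.

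At Gata6 the surrounding regions lay near 0. Its 3 regions with a peak in all 4 lists had a median log2 pileup difference of −0.48, while the 109 other such regions within 5 Mb of the gene had a median of 0.03. The corresponding medians were −0.15 and 0.05 at Gata2, −0.25 and 0.01 at Gata3, and 0.16 and −0.07 at Gata5, whereas at Gata4 they were −0.86 and −0.72. The median of all 38527 regions was 0.08. Within 5 Mb of Gata6, 16.3% of 233 regions were WT-restricted, beside 4 of 9 near the gene. At the 3 Gata6 regions the background differed by −0.37 and the fold by −0.18, so that the medians of all 3 measures were below 0, the fold at 2 of the 3 regions.

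**Figure D5:**
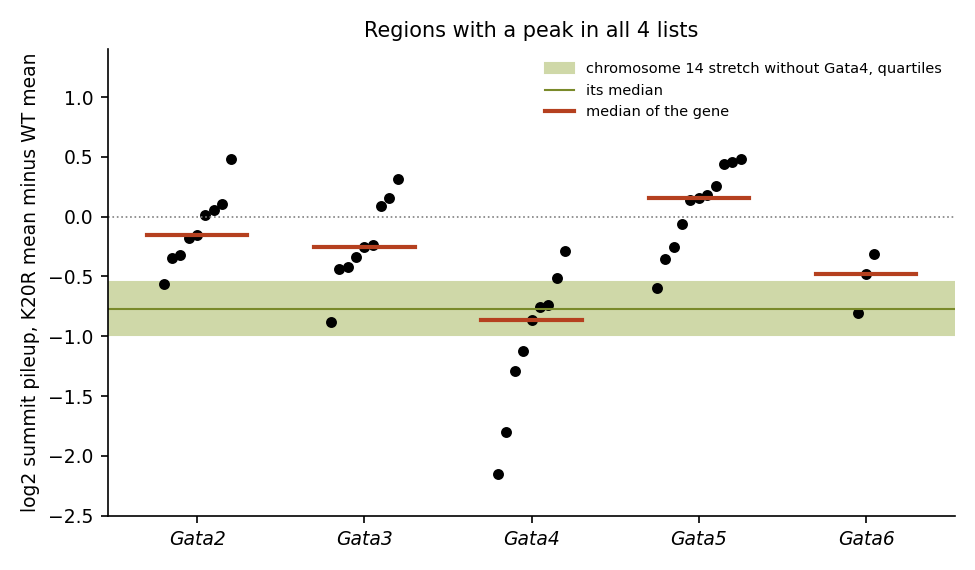
Difference of log2 summit pileup, K20R mean minus WT mean (vertical axis), at each region with a peak in all 4 lists (black points) within 100 kb of each GATA gene, with the median of the gene in red. The green band spans the quartiles of the chromosome 14 stretch without Gata4 (−0.99 to −0.54) and the green line its median; the median of Gata4 lies in the band and those of the other 4 genes lie above it.

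The 83 regions were not rich in the motifs searched. On both strands of the 201 bases around the strongest summit, the GATA motif occurred in 18 of the 83 regions (21.7%), beside 21.3% of all 80380 regions. It occurred in 2 of the 15 WT-restricted regions, 1 at Gata4 and 1 at Gata6, whereas 32.2% of all WT-restricted regions and 15.4% of all regions with a peak in every list held it. The T-box motif TCACACCT was in none of the 83 and in 1.25% of all regions, and the TCF-LEF motif ATCAAAG was in 1, a WT-restricted region of Gata6, and in 2.68% of all. The CTCF consensus was in 4 of the 83 (4.82%) and in 5.97% of all regions. A match describes the letters of the window and is not a bound site.

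Other genes of the GATA pathway were examined as a list of 20. These were 2 further GATA family genes, 5 cofactors, 5 cardiac partners, 4 endoderm partners and 4 partners from blood and endothelium, and 17 of them had a promoter peak in all 4 lists. Ranked among promoters, 9 of the 17 were lower in both K20R lists and 2 higher, and 6 overlapped, where 22.9% of all such promoters were lower and 23.8% higher. All 3 endoderm partners with such a peak were lower. Foxa2, a pioneer factor of definitive endoderm, stood at 85.7 and 86.5 in WT against 40.1 and 32.4 in K20R, a difference of −49.9, larger than that of any of the 5 GATA promoters. Hnf4a, a regulator of visceral endoderm and liver genes, had a promoter peak in both WT lists and in neither K20R list, with 1 peak number missing there in each K20R list. The other 2 genes without a peak in every list lacked it in a single WT list, which gives no direction. The promoter of Gata1 lacked a peak in the second WT list only, with 2 numbers missing, and that of Lyl1 in the first WT list only, with none missing. Among all peaks of a list, Gata1 was at 6.36 in the first WT list against 2.65 and 22.1 in K20R. Lyl1 was at 33.9 in the second WT list against 42.9 and 35.7 in K20R.

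Among the cofactors, Lmo2, a bridging protein of the GATA complex in blood progenitors, stood at 42.2 and 58.6 in WT against 26.7 and 33.2 in K20R, and Ldb1 and Zfpm2 were also lower, whereas Zfpm1, which encodes the GATA cofactor FOG1, and Tal1 overlapped. Runx1, required for blood stem cells, stood at 63.8 and 59.3 against 43.6 and 42.0. The cardiac partners did not share a direction. Nkx2-5 was lower, at 13.9 and 11.4 in WT against 7.77 and 5.37 in K20R, Mef2c and Srf were higher, and Tbx5 and Hand2 overlapped. Within 100 kb of the 20 genes, 44 of 337 regions (13.1%) were WT-restricted, beside 10.4% of all regions. K20R-restricted were 9 of the 337, beside 3.1% of all regions. Of the 44, 7 lay at Fli1, 6 at Zfpm1 and 5 at Runx1.

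Genes with promoter percentiles most like those of each member were found by the root mean square difference over the 4 libraries among the 14480 genes. Gata6 was most like Shisa2, Kndc1 and Dll3, at 2.01 to 2.18 percentile points. Gata4 was most like Ankrd2, Creg2 and Tcea3, at 1.66 to 3.16, and Gata5 most like Dnajc15, Commd9 and Slc10a3, at 0.491 to 1.17. Gata2 was most like Vat1, Fam189a1 and Tbx2, and Gata3 most like Dync1h1, Dbndd1 and Inpp5e. The likeness describes rank in 4 libraries only.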

How the data were processed

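ATAC-seq peak lists of 4 libraries, 2 WT and 2 K20R, were used, with genotype and replicate number from the labels. Per the study's methods, the authors trimmed reads with Trim_Galore, aligned them to mm10 with bowtie2, removed duplicates, low-quality and blacklisted reads and called peaks with MACS2. Each deposited list gives a score, a summit offset, the ratio (fold) of the summit over local background, and the −log10 p and −log10 q of that summit, as the authors' caller wrote them. These values are relative to each library's own background. They were compared by rank, or as pileups recovered from fold and p (within 0.05 of a whole number for over 99.97% of peaks) and centred on each library's median. Recovered backgrounds and folds were compared after the same centring, and summit folds and widths of promoter peaks were also given without it. No read counts were used here, so no model of counts was fitted and the depth behind a single peak is unknown.

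Peaks sharing at least 1 bp were merged into regions. TSSs, exons and introns were those of the GENCODE vM21 basic annotation of protein-coding genes. Regions were annotated by the strongest summit, and coordinates count from 1. Values were compared by exact two-sided permutation tests, 2 libraries against 2. Neighbouring windows of about 40 regions were used to find the chromosome 14 stretch. Python 3.11.15, numpy 2.4.6, pandas 2.3.3, scipy 1.17.1 and matplotlib 3.10.9 were used, and the scripts were tested on simulated data. Named items were all 5 genes, their promoter regions, for each gene up to 3 restricted regions of highest mean percentile and the regions with a peak in all 4 lists that differed most in either direction, a list of 20 pathway genes, and the 3 most similar promoters. The members and lists were chosen with earlier results of these data known. Alternatives covered distance, promoter width, thresholds, overlap, ranked value, missing peak numbers, TSS choice, Gata4, pairing and single libraries. Expression values of the study were left out. One region near the members is not reported here.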

Additional observations from a re-analysis of the deposited data

How the results depend on the processing

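Of 131 values from alternative settings, 5 changed sign. The 131 include counts, which cannot change sign, and 12 replicate-block values, which are fixed by construction. The share that changed sign is therefore no measure of stability. For differences only the direction was compared, and sizes shifted, as at the Gata3 promoter, with 39.7 percentile points within 500 bp of the TSS. The WT-restricted and K20R-restricted counts of 15 and 2 became 7 and 1 within 20 kb, and 9 WT-restricted without Gata4. At a −log10 q of at least 10 they were 6 and 0, where 6.92% of all regions were WT-restricted. These 6 are not a subset of the 15, since regions whose K20R peaks fall below that minimum also count. Both at Gata4, chr14:63247265-63248072 and chr14:63338135-63339277, had such K20R peaks. At regions with no missing peak number the counts were 6 and 1, with 5 of the 6 at Gata4 and 1 at Gata3. No share of all regions was computed for this setting. With lists cut to equal length, 5 regions were K20R-restricted, beside 6.29% of all regions. Leaving out each library in turn gave 16 to 21 WT-restricted and 3 to 5 K20R-restricted regions, with 5 without WT replicate 2, 5 without K20R replicate 1 and 4 without K20R replicate 2, while the WT-restricted share of all regions was 12.6% to 20.7% and the K20R-restricted share 4.45% to 7.99%. Ranked by fold, the Gata4 promoter differed by 2.48 percentile points. Ranked by p, that of Gata3 lay between −0.40 and 3.66 when 1 library was left out, with the negative value without WT replicate 1. The difference in peak number at Gata2 was 0 within 50 kb, 2.5 with equal list lengths and −3.5 to 2.5 with 1 library left out (2.5 without WT replicate 2), and at Gata3 it was 1 with equal list lengths and −1 to 0 with 1 library left out. At Gata6 it was −2.5 within 50 kb and −3.5 at a −log10 q of at least 10, which also gave −3.5 at Gata4. Of the regions with a peak in all 4 lists, 10 were lower and 3 higher within 50 kb, and 10 were lower without Gata4. The cause of these shifts was not tested. With the window difference for the chromosome 14 stretch set to 0.5, chosen after seeing the data, the stretch was chr14:44988432-66176004 and Gata4 differed from it by −0.06. Replicate numbers are shared between genotypes, and the labels give no shared batch. Region by region, replicates of the same number hardly deviated together (correlation 0.0979 over 38527 regions). Whole lists did differ by replicate number. The median fold was 4.68 in WT and 4.73 in K20R for replicates 1, against 5.85 and 6.04 for replicates 2. The correlation does not measure this list-wide difference, and its cause was not tested. In this balanced design a replicate block gives the same 12 values by construction (Gata6 promoter −24.6, Gata4 −20.2, 15 WT-restricted regions), which says nothing of their stability, and the smallest exact p of the paired sign-flip test is 0.5.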
